A study of Mus musculus with 8 samples.

Results

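The replication-dependent and linker histone genes were followed in RNA sequencing libraries of mouse dorsal root ganglia, which lie along the spinal cord and hold the cell bodies of sensory neurons. They were all genes whose symbol opens with H1f, H2ac, H2bc, H3c or H4c and a digit, 55 of the 25780 symbols counted. In the gene table of RefSeq, 42 of them lie on chromosome 13, 10 on chromosome 3 and 1 each on chromosomes 6 (H1f10), 15 (H1f0) and 19 (the pseudogene H1f11-ps). The 52 genes on chromosomes 13 and 3 are called the clustered genes here: 6 linker H1f, 12 H2ac, 11 H2bc, 11 H3c and 12 H4c genes.

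Mice with an inducible deletion of Ehmt2, the gene of the histone methyltransferase G9a, are labelled iKO, and their genotype is given as Avil-iCreERT2/AJwo with G9aflox/flox. Avil is a gene of sensory neurons, so Cre is driven in those cells and the other cells of the ganglion keep the gene by design. Controls (WT) were littermates lacking Cre, and whether they carry floxed alleles, the inducing agent, the age and the sex are not given in the sources used here. Mice of each genotype had vehicle or CFA (complete Freund's adjuvant, which causes lasting inflammation) put in the left paw, and ganglia were taken on day 14. Each of the 4 groups (WT vehicle, WT CFA, iKO vehicle, iKO CFA) has 2 libraries. Nothing states that these came from separate animals, so the p-values measure only the spread between these libraries, which may be technical.

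Most clustered histone genes are copied into RNA when a cell replicates its DNA, to package the new strands. Their messages end in a short stem-loop bound by the protein SLBP in place of a poly-A tail, so a library made from tailed RNA holds few of them, while the linker genes H1f0 and H1f10 have tailed messages and are also made outside of replication. Linker H1 closes the DNA around a nucleosome, and H2A, H2B, H3 and H4 form its core. G9a methylates H3 on lysine 9, which links the deleted gene to the proteins these genes encode.

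The histone 3′ stem-loop is shown first because it separates the messages that should lack a tail from the others. It was searched as a perfect stem of 6 base pairs opening with GG around a loop of 4 bases opening with TT, in the GENCODE M21 transcripts (assembly GRCm38) matched to the symbols through their former names. It stood after the coding end in 35 of the 55 genes, and anywhere in a transcript of 185 of 55341 annotated genes (0.334%). There were 6 forms, written with the stem in capitals.
Form in 19 genes (3 H1f, 7 H2ac, 5 H2bc, 4 H3c): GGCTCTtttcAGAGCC
Form in 6 H4c genes: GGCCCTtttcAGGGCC
Form in 5 genes (1 H1f, 1 H2bc, 3 H3c): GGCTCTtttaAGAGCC
Form in 2 H4c genes: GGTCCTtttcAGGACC
Other form in 2 H4c genes: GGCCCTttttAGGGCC
Form in 1 H2ac gene: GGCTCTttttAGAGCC
Stems of H4c genes thus differed from those of every other class, while most stem-loops of H1f, H2ac, H2bc and H3c genes shared a single sequence. In 16 of the 35 genes every annotated transcript ended less than 100 bases past the stem-loop. In the other 19 a transcript ran 100 bases or more beyond it, and such a longer end may carry a tail. A further 3 clustered genes, H2bc4, H2bc21 and H4c1, had a 3′ UTR of 100 bases or more without the stem-loop. The remaining 14 clustered genes had no annotated 3′ UTR or a short one, so the search says nothing of them.

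The libraries held 26312614 to 42971823 reads, and 3 reads correspond to 0.0735 to 0.103 CPM, read counts scaled to library depth, the level used below. Ehmt2 stood at 74.4, 65.4, 74.2 and 61.3 CPM in the 4 WT libraries and at 34.0, 31.6, 45.0 and 44.2 CPM in the 4 iKO libraries. All 10 sensory neuron markers were found in every library, summing to 10381 CPM or more. The WT vehicle libraries stood apart: their B and plasma cell markers summed to 2118 and 863 CPM, against 2.64 to 47.1 CPM in the other 6, with Jchain and Mzb1, genes of antibody-secreting cells, leading the list, and skeletal muscle markers summed to 329 CPM in library 1. The WT CFA libraries differed from each other, with Schwann cell markers at 7875 CPM in library 1 and 18907 CPM in library 2 and erythroid markers at 179 and 1540 CPM. In whole ganglia, fewer cells of a type and less RNA per cell cannot be told apart.

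Reads of the clustered genes came mainly from a pair of genes. Over all libraries H1f2 held 45.0% of them and H2bc4 30.4%, followed by H2bc6 (4.62%), H2bc21 (3.23%), H2ac18 (2.86%), H4c8 (1.9999%), H2bc11 (1.81%) and H3c15 (1.69%). Per kilobase of the longest annotated transcript, H1f2 averaged 50.5 CPM, H1f0 50.1, H2bc4 46.0, H1f10 20.4, H2ac18 8.98, H4c8 7.50 and H2bc11 6.74 CPM. At the other end 42 of the 55 genes averaged under 1 CPM, and 35 had fewer than 100 reads in all libraries summed. A filter on low counts kept 35 of the 55 for testing (32 of the 52 clustered), and 20 were not tested, with mean levels of at most 0.180 CPM.

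**Figure D1:**
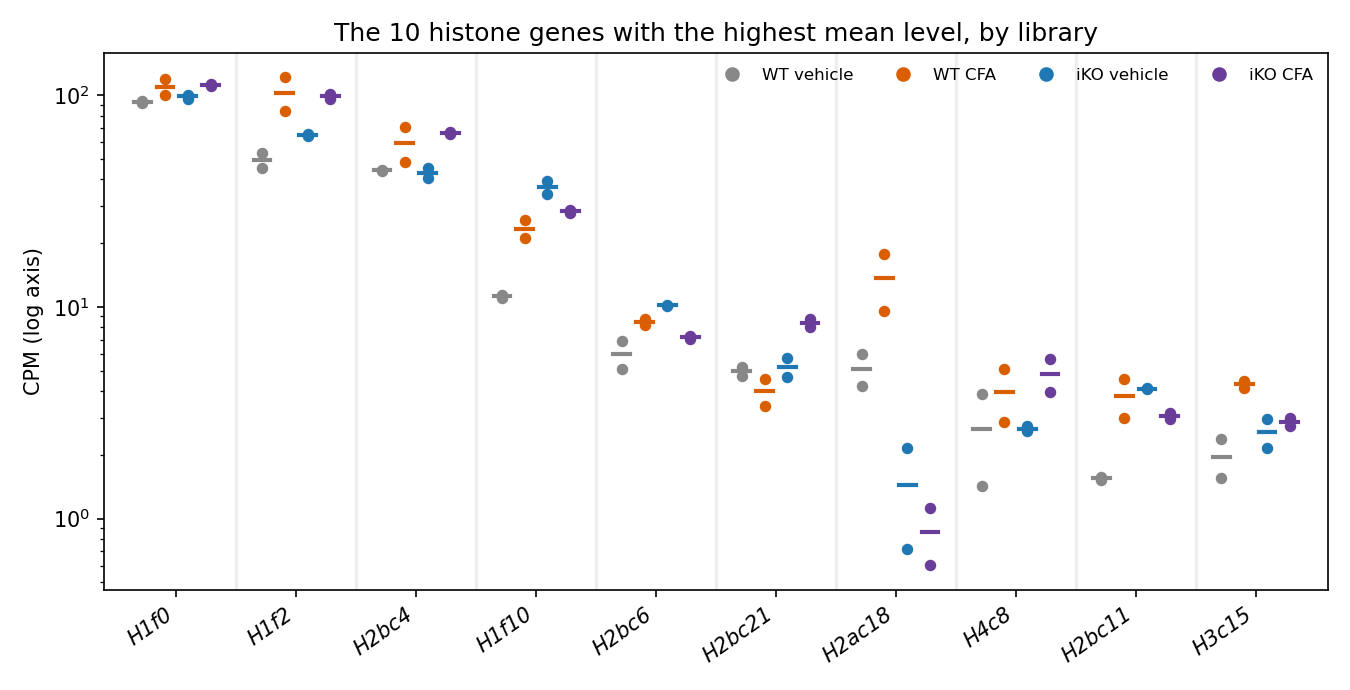
Level of the 10 histone genes with the highest mean CPM (log axis) in each library, with points for libraries, horizontal bars for group means of 2 libraries and colours for the 4 groups. H1f10 sits at 11.1 and 11.3 CPM in WT vehicle and above 20 in the other groups, while H2ac18 sits highest in WT CFA and lowest in both iKO groups.

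Few histone genes passed the test, and the calls fell on 5 of them: H1f2, H1f10, H2bc11, H2bc18 and H2ac18. With CFA in WT, 3 of the 35 tested (8.57%) were called, all higher, where 16.8% of the 20235 tested genes were called (8.12% higher, 8.71% lower). With CFA in iKO 0 of 35 were called by edgeR, where 0.0395% of all genes were (0.0395% higher, 0% lower). At an unadjusted p under 0.05 there were 3, and DESeq2 called 1. Between iKO and WT under vehicle 2 were called higher and 1 lower in iKO (8.57%), against 17.6% of all genes (8.28% higher, 9.33% lower). Under CFA 1 was called, lower in iKO (2.86%), against 1.7% of all genes (1.5% higher, 0.208% lower). For the difference between the CFA responses, iKO minus WT, 1 was called, lower (2.86%), against 9.36% of all genes (6.19% higher, 3.17% lower). Single libraries moved these counts, and the share of all genes called moved with them. With CFA in WT 0 were called without WT vehicle library 1 (1.21% of all genes) or 2 (5.86%), and 8 of 40 without WT CFA library 1 (34.6%). With CFA in iKO 4 of 40 and 4 of 42 were called without WT CFA library 1 (32.2% of all genes) or 2 (32%): H1f2 (0.60 and 0.59), H2bc4 (0.61), H2bc21 (0.68) and H1f10 (-0.39). Under vehicle 1 was called without any 1 of the 4 vehicle libraries (1.84% to 8.47% of all genes) and 7 without WT CFA library 1 (39.2%) or 2 (38.9%). Under CFA 0 were called without iKO CFA library 1 (0.405%) or 2 (0.342%) and 4 of 42 without WT CFA library 2 (26.8%). For the difference between the responses 0 were called when WT vehicle library 1 or any of the iKO libraries was left out (1.06% to 2.46%), 6 without WT CFA library 1 (21.4%) and 5 without WT CFA library 2 (38.2%). Median log2 fold changes of the 35 were 0.04 and 0.58 for CFA in WT and in iKO, and -0.19 and -0.06 for iKO against WT under vehicle and under CFA. Those of all tested genes were -0.03, -0.00, 0.01 and -0.02.

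**Figure D2:**
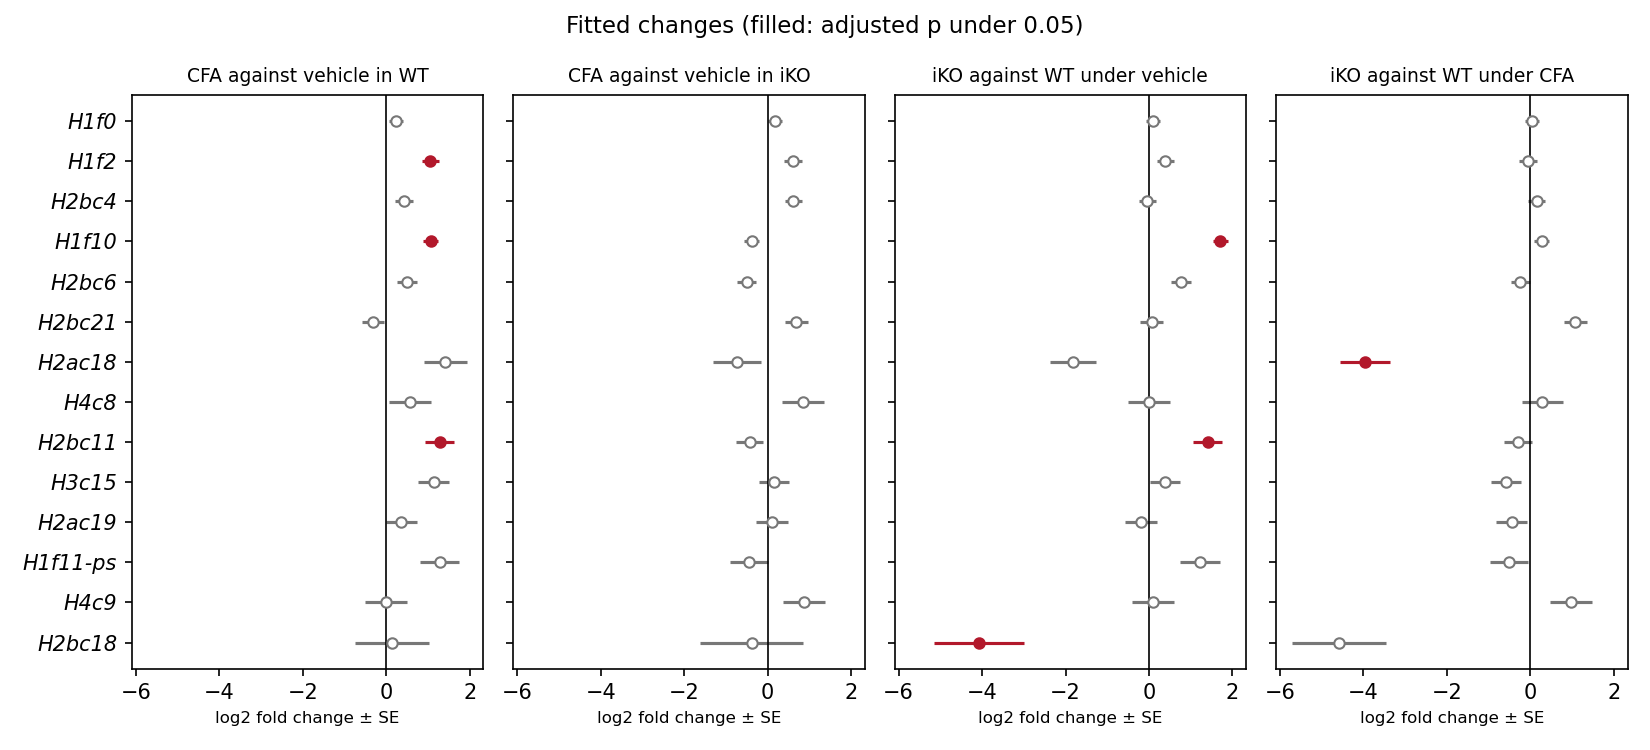
Fitted log2 fold changes (x axis, bars: standard error) of the 13 tested histone genes with the highest mean CPM and of H2bc18, in 4 comparisons. Filled red points passed an adjusted p of 0.05: 3 with CFA in WT, 3 between genotypes under vehicle and 1 under CFA.

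H1f10, a linker histone made independently of replication and encoded away from the clusters on chromosome 6, had the most calls. It stood at 11.1 and 11.3 CPM in WT vehicle, 25.6 and 21.2 in WT CFA, 39.3 and 34.0 in vehicle-treated iKO and 28.8 and 27.7 CPM in CFA-treated iKO. The WT vehicle libraries were lowest and the iKO vehicle libraries highest, and no 2 groups overlapped. In WT it rose with CFA (log2 fold change 1.06 ± 0.18 SE, adjusted p = 0.00946), a call lost when WT vehicle library 1 was left out (1.04, adjusted p = 0.0975) or 2 (1.07, 0.0505). Under vehicle it was higher in iKO than in WT by 1.71 ± 0.19 (adjusted p = 0.00137), and that call held in each of the 14 alternatives (1.60 to 1.82). The CFA response in iKO minus that in WT was -1.44 ± 0.26 (adjusted p = 0.0149). This call was lost when WT vehicle library 1 was left out (-1.40, adjusted p = 0.0866), iKO vehicle library 1 (-1.34, 0.0920) or 2 (-1.55, 0.0618) or iKO CFA library 1 (-1.48, 0.0736) or 2 (-1.34, 0.0912). All 3 comparisons share the WT vehicle libraries. By median, sensory neuron markers went the same way as H1f10 in every comparison but that between genotypes under CFA. They summed to 10381 and 13381 CPM in WT vehicle and to 21428 and 14933 in WT CFA. In iKO the sums were 21151 and 21746 CPM with vehicle and 13952 and 13739 with CFA. With CFA in WT 9 of the 10 lay above 0 (median log2 fold change 0.42, 3 called higher). Under vehicle 9 lay above 0 in iKO against WT (0.75, 3 called higher). Of all genes 8.12% and 8.28% were called higher there. All 10 lay below 0 with CFA in iKO (-0.64, 0 called by edgeR, 6 called lower by DESeq2). For the difference between the responses all 10 lay below 0 (-1.36, 4 called lower against 3.17% of all genes). Under CFA all 10 lay below 0 in iKO against WT (median log2 fold change -0.49, 0 called by edgeR, 3 at an unadjusted p under 0.05, 3 called lower by DESeq2), where H1f10 was at 0.27 ± 0.18 (adjusted p = 0.527). Their part in the result was not tested.

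H1f0, the other linker gene outside the clusters, was called in 0 of the 5 comparisons by edgeR or DESeq2. Its 8 levels ran from 91.4 CPM in WT vehicle to 119 CPM in WT CFA, with 96.2 and 101 CPM in vehicle-treated iKO and 111 and 112 CPM in CFA-treated iKO. Fitted changes were 0.24 ± 0.17 with CFA in WT, 0.18 ± 0.17 with CFA in iKO, 0.09 ± 0.17 for iKO against WT under vehicle and 0.03 ± 0.17 under CFA, with unadjusted p of 0.182 or more. With the 2 iKO groups fitted alone the CFA difference passed (0.21, adjusted p = 0.0412).

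H1f2, the linker gene of the chromosome 13 cluster with the most reads, was higher after CFA. It stood at 53.2 and 45.4 CPM in WT vehicle, 84.0 and 121 in WT CFA, 65.4 and 64.0 in vehicle-treated iKO and 95.6 and 101 CPM in CFA-treated iKO. In both genotypes the CFA libraries lay above the vehicle libraries, and WT CFA library 2 was highest. The rise in WT was 1.06 ± 0.21 (adjusted p = 0.0146), lost when WT vehicle library 1 was left out (1.18, adjusted p = 0.107) or 2 (0.94, 0.0918). In iKO the difference was 0.61 ± 0.21 (adjusted p = 0.118), and it passed without WT CFA library 1 (0.60, 0.00295) or 2 (0.59, 0.00289). The difference of 0.39 ± 0.21 between genotypes under vehicle (adjusted p = 0.218) also passed without WT CFA library 1 (0.40, 0.0219) or 2 (0.40, 0.0220), and that between the responses (-0.45 ± 0.29, adjusted p = 0.324) without WT CFA library 1 (-0.69, 0.0237). Its annotated transcript ran 840 bases past the stem-loop. The other 5 clustered H1f genes averaged at most 0.948 CPM (H1f4), and of the 4 tested, 0 were called in any comparison by edgeR or DESeq2 and 0 had an unadjusted p under 0.05. Without WT CFA library 1 edgeR called H1f4 (-2.56, adjusted p = 0.0386) and H1f3 (0.0331) with CFA in WT and H1f3 for the difference between the responses (0.0430), where H1f3 had 0 reads in the WT CFA library that was kept.

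Promoters of these linker genes differ in the short sequences known from histone promoters, and the 250 bases before each start are printed for that comparison (RefSeq, GRCm38.p6, a build other than that of the counts). H1f2 is read from chr13:23738557-23738806 on the plus strand and H1f10 from chr6:87981483-87981732 on the minus strand. Capitals mark the CCAAT box, the TATA box spelled TATAAA, the octamer ATTTGCAT and the H1 box spelled AAACACA. All were searched on both strands.
H1f2: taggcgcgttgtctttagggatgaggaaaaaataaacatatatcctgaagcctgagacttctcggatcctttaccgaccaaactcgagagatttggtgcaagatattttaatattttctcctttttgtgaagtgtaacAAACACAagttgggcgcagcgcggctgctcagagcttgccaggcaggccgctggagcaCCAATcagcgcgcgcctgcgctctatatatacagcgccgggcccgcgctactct
H1f10: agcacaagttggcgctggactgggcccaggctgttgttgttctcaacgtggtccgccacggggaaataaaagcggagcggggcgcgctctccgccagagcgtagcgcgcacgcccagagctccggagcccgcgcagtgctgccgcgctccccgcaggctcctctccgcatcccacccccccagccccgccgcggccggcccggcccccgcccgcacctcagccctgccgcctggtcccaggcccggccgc
The H1f2 window held 1 H1 box and 1 CCAAT, and the H1f10 window held 0 of the 4 motifs. The H1 box stood in 5 of 6 matched clustered H1f promoters, 1 of 12 H2ac and 0 of the other classes, against 6.25% of 32851 windows of all genes. CCAAT stood in all 6 H1f, 12 H2ac and 9 H2bc windows, 7 of 9 H3c and 3 of 11 H4c windows, against 33.85% of all. TATAAA stood in 4 of 6, 5 of 12, 4 of 9, 3 of 9 and 6 of 11 windows in the same order, against 12.37%. The octamer, a site of the factor Oct1 known from H2B promoters, stood in 4 of 12 H2ac and 4 of 9 H2bc windows and in none of the others, against 1.6%. In all 49 genes were matched, and H2bc4 and H2bc21 were not among them. For 21 of the 50 windows of these genes the bases after the start occurred in a GENCODE transcript of the same gene. Where the others truly start is less certain. Some H2ac and H2bc windows overlap on opposite strands, such as those of H2ac8 and H2bc8 and of H2ac11 and H2bc11. The same letters are then counted in both classes. A match only describes these letters in these windows.

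H2ac18, a core H2A gene of the chromosome 3 cluster, was the H2ac gene with the widest spread. It stood at 5.96 and 4.23 CPM in WT vehicle, 9.51 and 17.8 in WT CFA, 2.16 and 0.718 in vehicle-treated iKO and 0.603 and 1.12 CPM in CFA-treated iKO. Every WT library lay above every iKO library. Under CFA it was lower in iKO (log2 fold change -3.97 ± 0.60, adjusted p = 0.0160), a call lost without iKO CFA library 1 (-3.60, adjusted p = 0.133) or 2 (-4.49, 0.106). Under vehicle it was lower by -1.81 ± 0.55 in the fit, short of the threshold (adjusted p = 0.0531), and passed without WT CFA library 1 (-1.80, 0.010008) or 2 (-1.81, 0.0118), in DESeq2 (-1.88, 0.00775), without the filter (0.0353), under the other legacy setting (0.0394) and with the 2 groups alone (0.0203). Its change with CFA in WT (1.42 ± 0.53, adjusted p = 0.0954) and the difference between the responses (-2.16 ± 0.78, 0.105) passed without WT CFA library 1 (1.80, 0.0170 and -2.55, 0.0279). Its neighbour H2ac19, named after its values were seen, stood at 3.32, 2.06, 3.77 and 3.11 CPM in the WT libraries and at 2.72, 1.98, 2.47 and 2.58 CPM in the iKO libraries. The difference for H2ac19 under CFA was -0.45 ± 0.38 (adjusted p = 0.620). The remaining 10 H2ac genes averaged 0.0197 to 0.336 CPM.

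Both genes are near-identical copies, so the split of reads between them is uncertain. Of the stretches of 50 bases in H2ac18 transcripts 89.2% also occur in H2ac19, and 100% of those of H2ac19 occur in H2ac18. How the authors' counting treated reads with several matches is not given in the sources used here. Their promoters share an identical run of 169 bases, and both are printed to show the repeat. H2ac18 is read from chr3:96245247-96245496 on the plus strand and H2ac19 from chr3:96240375-96240624 on the minus strand, with the same 4 motifs in capitals.
H2ac18: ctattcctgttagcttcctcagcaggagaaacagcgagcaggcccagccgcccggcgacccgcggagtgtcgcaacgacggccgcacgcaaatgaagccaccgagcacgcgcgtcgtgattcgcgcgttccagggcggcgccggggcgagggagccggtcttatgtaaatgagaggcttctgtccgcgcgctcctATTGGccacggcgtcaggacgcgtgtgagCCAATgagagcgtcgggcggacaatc
H2ac19: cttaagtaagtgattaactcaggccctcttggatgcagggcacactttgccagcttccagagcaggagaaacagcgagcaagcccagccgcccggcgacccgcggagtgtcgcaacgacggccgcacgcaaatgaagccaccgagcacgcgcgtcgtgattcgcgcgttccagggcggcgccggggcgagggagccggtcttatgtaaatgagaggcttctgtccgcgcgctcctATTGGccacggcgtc
The only capitals are CCAAT or its reverse complement, 2 in H2ac18 and 1 in H2ac19, and the shared run holds 1 of them. That run ends at the last base of the H2ac19 window, and the second CCAAT of H2ac18 lies beyond it. The length of the run and the counts of CCAAT thus depend on where the windows were cut. Antisense gene models of GENCODE overlap both genes (Gm20633 and Gm20632). They are no symbols of the count files, and the strand setting of the counting is not given in the sources used here.

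H2bc18, a core H2B gene at the far end of the same cluster, was nearly without reads in iKO. It had 42 and 44 reads in WT vehicle, 57 and 43 in WT CFA, 5 and 1 in vehicle-treated iKO and 4 and 0 in CFA-treated iKO, levels of 1.31 to 1.52 CPM in WT and 0 to 0.123 CPM in iKO. Every WT library lay above every iKO library. The ratio of summed reads per depth, WT over iKO, was 20.2 under vehicle (95% interval of counting error 8.92 to 56.6) and 23.1 under CFA (8.75 to 86.5). The fitted difference under vehicle was -4.07 ± 1.07 (adjusted p = 0.0349), lost when WT vehicle library 1 was left out (-4.04, adjusted p = 0.188) or 2 (-4.14, 0.101) or iKO vehicle library 1 (-5.39, 0.120) or 2 (-3.43, 0.203). Under CFA it was -4.59 ± 1.12 (adjusted p = 0.0970), which DESeq2 called (-4.68, adjusted p = 0.00169) and which passed without WT CFA library 2 (-4.63, 0.0138). No stretch of 50 bases in its transcript occurs in a gene elsewhere, while an antisense model, Gm20628, overlaps it.

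**Figure D3:**
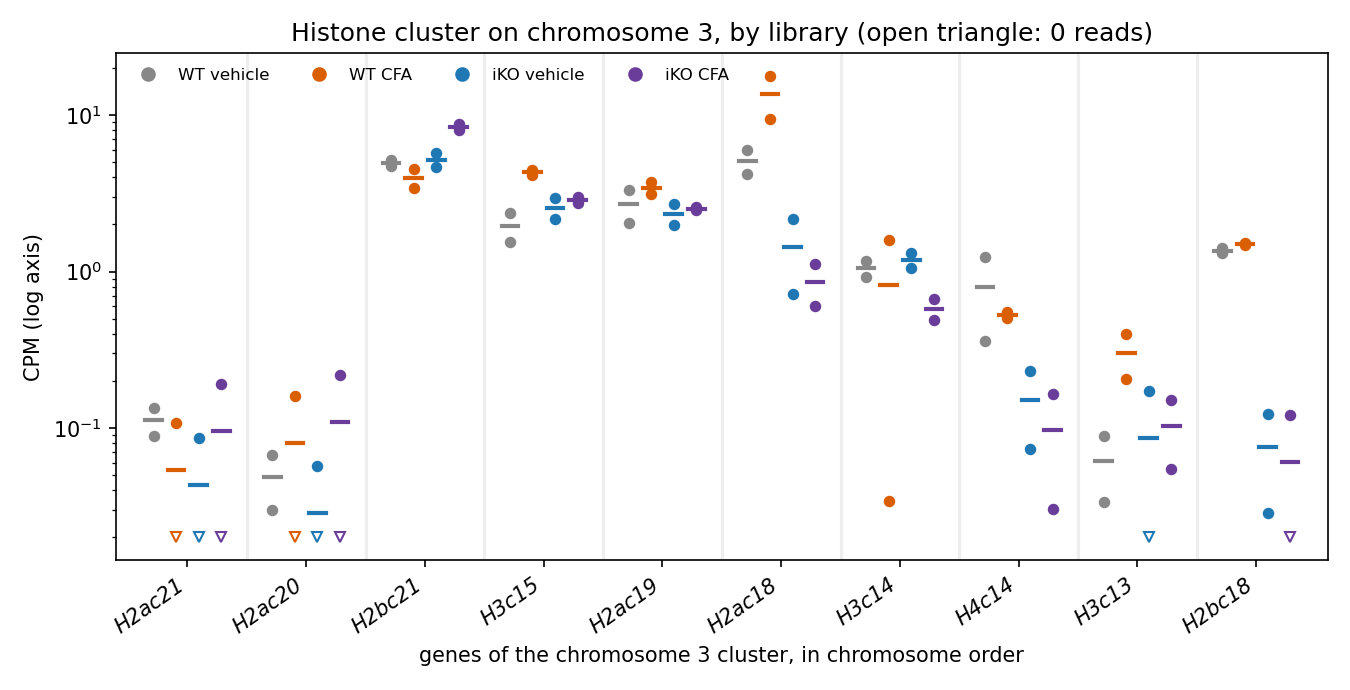
Level in CPM (log axis) of the 10 histone genes of chromosome 3 in chromosome order, with points for libraries, horizontal bars for group means and open triangles for libraries with 0 reads. H2ac18, H4c14 and H2bc18 lie lower in all iKO libraries than in any WT library, with H2ac19 and H3c13 among their near neighbours overlapping between genotypes.

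The lower levels in iKO were not shared by the whole chromosome 3 cluster. In chromosome order its genes are H2ac21, H2ac20, H2bc21, H3c15, H2ac19, H2ac18, H3c14, H4c14, H3c13 and H2bc18. H4c14, named after its values were seen, had 37, 12, 19 and 16 reads in the WT libraries and 3, 8, 1 and 6 in the iKO libraries. Its fitted differences of -2.38 ± 1.14 under vehicle (adjusted p = 0.175) and -2.38 ± 1.18 under CFA (0.394) did not pass. H2bc21, in the same cluster, stood at 5.19, 4.74, 3.42 and 4.55 CPM in WT and at 4.66, 5.74, 8.80 and 8.004 CPM in iKO. Its difference was 1.08 ± 0.27 under CFA (adjusted p = 0.107), which DESeq2 called (1.07, adjusted p = 0.0355) and which passed without WT CFA library 2 (1.29, 0.00976). The genes that flank the cluster are Bola1 and Fcgr1. Under CFA they differed between iKO and WT by 0.01 ± 0.28 (adjusted p = 0.996) and 0.38 ± 0.49 (0.766). Under vehicle they differed by 0.42 ± 0.28 (0.321) and -2.44 ± 0.52 (0.0168). Nor was the order of genotypes confined to chromosome 3. H4c12 on chromosome 13 had 8, 10, 10 and 16 reads in the WT libraries and 3, 0, 2 and 1 in the iKO libraries. How many of all tested genes show that order was not counted.

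H2bc11, a core H2B gene of chromosome 13, was lowest in WT vehicle. It stood at 1.57 and 1.52 CPM there, 2.99 and 4.55 in WT CFA, 4.12 and 4.10 in vehicle-treated iKO and 2.95 and 3.15 CPM in CFA-treated iKO. It rose with CFA in WT by 1.28 ± 0.34 (adjusted p = 0.0369) and was higher in iKO than in WT under vehicle by 1.41 ± 0.34 (adjusted p = 0.0267). Both calls use the same WT vehicle libraries. The CFA call was lost without any library but WT CFA library 1 (0.95 to 1.31, adjusted p 0.0700 to 0.201), and the vehicle call when either WT vehicle or any 1 iKO library was left out (1.35 to 1.42, adjusted p 0.0550 to 0.174). The difference between the CFA responses was -1.71 ± 0.48 (adjusted p = 0.0569), and it passed without WT CFA library 1 (-1.99, 0.0123) or 2 (-1.39, 0.0358) and in DESeq2 (-1.67, 0.0332). Of its 50-base stretches 59.4% occur in genes elsewhere, so its counts are uncertain too.

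The promoters of H2bc18 and H2bc11 are printed because the genes were called in opposite directions between genotypes under vehicle. Under CFA H2bc11 differed by -0.30 ± 0.33 (adjusted p = 0.715), the same sign as H2bc18. H2bc18 is read from chr3:96269450-96269699 and H2bc11 from chr13:22042948-22043197, both on the plus strand.
H2bc18: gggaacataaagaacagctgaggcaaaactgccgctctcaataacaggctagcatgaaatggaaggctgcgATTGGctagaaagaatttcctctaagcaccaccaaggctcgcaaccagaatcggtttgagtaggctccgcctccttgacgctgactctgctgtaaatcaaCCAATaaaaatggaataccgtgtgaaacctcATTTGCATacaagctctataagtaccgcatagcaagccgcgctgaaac
H2bc11: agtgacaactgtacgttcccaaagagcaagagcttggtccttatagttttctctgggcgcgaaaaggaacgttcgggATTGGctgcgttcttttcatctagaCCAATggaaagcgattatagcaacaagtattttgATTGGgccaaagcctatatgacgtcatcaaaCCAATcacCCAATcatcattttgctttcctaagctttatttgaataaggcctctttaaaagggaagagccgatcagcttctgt
H2bc18 held 1 octamer and 2 CCAAT, and H2bc11 held 5 CCAAT and no octamer. The H2bc11 window overlaps that of H2ac11 (chr13:22042950-22043199, minus strand), a gene that averaged 0.0900 CPM.

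H2bc4 and H2bc6, the H2B genes of chromosome 13 with the most reads, were called in 0 of the 5 comparisons by edgeR. H2bc4 stood at 44.3 and 44.0 CPM in WT vehicle, 48.1 and 70.6 in WT CFA, 45.2 and 40.8 in vehicle-treated iKO and 65.4 and 66.8 CPM in CFA-treated iKO. In both genotypes the CFA libraries lay higher. The differences were 0.43 ± 0.21 in WT (adjusted p = 0.185) and 0.62 ± 0.21 in iKO (0.113), and DESeq2 called the latter (0.64, adjusted p = 0.049999), as did edgeR without WT CFA library 1 (0.61, 0.00206) or 2 (0.61, 0.00209). H2bc6 stood at 6.87 and 5.09, 8.73 and 8.18, 10.2 and 10.1, and 7.02 and 7.32 CPM in the same order. Its difference between iKO and WT under vehicle was 0.77 ± 0.24 (adjusted p = 0.0568), and it passed without WT CFA library 1 (0.77, 0.0167) or 2 (0.77, 0.0163). H2bc21 was 0.69 ± 0.27 higher with CFA in iKO (adjusted p = 0.141). The 6 other H2bc genes averaged 0.0474 to 0.396 CPM.

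Core H3 and H4 genes mostly had few counted reads, with 0 of 4 tested H3c and 0 of 9 tested H4c genes called by edgeR in any comparison. In 22 of the 55 histone genes 50% or more of the 50-base stretches occur in genes elsewhere, among them H3c15 (63.5%). How reads with several matches were counted is not given, so few reads need not mean a low level. H3c15 stood at 2.38 and 1.55 CPM in WT vehicle, 4.49 and 4.14 in WT CFA, 2.97 and 2.15 in vehicle-treated iKO and 2.74 and 2.99 CPM in CFA-treated iKO. Its change with CFA in WT was 1.14 ± 0.36 (adjusted p = 0.0641), and it passed without WT CFA library 2 (1.194, 0.0479). H4c8 stood at 3.89 and 1.43, 2.86 and 5.06, 2.60 and 2.73, and 3.98 and 5.65 CPM in the same order, with the WT groups overlapping. Its change with CFA was 0.58 ± 0.50 in WT (adjusted p = 0.460) and 0.85 ± 0.50 in iKO (0.283). The other 10 H3c genes averaged 0.0526 to 0.908 CPM. At an unadjusted p under 0.05 the tested H3c genes gave 1, 0, 0, 1 and 0 in the 5 comparisons and the H4c genes 1, 0, 0, 0 and 1, and DESeq2 called none of either. Without WT CFA library 1 edgeR called H3c14 with CFA in WT (-4.80) and H4c3 for the difference between the responses. In the WT CFA library that was kept H3c14 had 1 read and H4c3 had 0, against 60 and 18 in the library left out.

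Summed over the 52 clustered genes, histone messages were higher after CFA in iKO, and in WT the separation of the groups depended on the scaling. The TMM-scaled sums were 146 and 121 CPM in WT vehicle, 179 and 250 in WT CFA, 150 and 139 in vehicle-treated iKO and 203 and 213 CPM in CFA-treated iKO. As a share of all reads they were 0.0165% and 0.0136%, 0.0161% and 0.0227%, 0.0143% and 0.0134%, and 0.0206% and 0.0218% in the same order, so that the WT groups overlapped. Group means were 133 ± 17.9, 214 ± 49.8, 145 ± 7.77 and 208 ± 6.56 CPM (SD, n = 2). Without H1f2 and H2bc4 the sums were 48.4 and 31.2, 47.0 and 57.9, 39.8 and 34.7, and 42.4 and 44.7 CPM, and the WT groups overlapped. Without H2ac18 as well they were 42.4 and 27.0, 37.4 and 40.1, 37.7 and 34.0, and 41.8 and 43.6 CPM. Schwann cell markers were at 12158 and 6999, 7875 and 18907, 6646 and 7586, and 16894 and 15717 CPM and erythroid markers at 330 and 140, 179 and 1540, 415 and 335, and 1660 and 1549 CPM. All 7 markers of each list were found in every library. Both lists were high in WT CFA library 2 and the iKO CFA libraries, which also held the highest histone sums. Satellite glia markers were highest in the same libraries, at 2878 and 1891, 1902 and 4272, 1699 and 1865, and 3554 and 3569 CPM. The part of these lists in the result was not tested.

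The same genes served as a readout of RNA without poly-A tails. Genes annotated with a longer end past the stem-loop held 48.8% to 58.6% of the clustered CPM in a library, H2bc4, H2bc21 and H4c1 held 28.8% to 40.4%, and genes ending near the stem-loop held 5.81% to 12.5%. The last class summed to 17.0 and 10.6 CPM in WT vehicle, 20.9 and 31.2 in WT CFA, 12.4 and 10.046 in vehicle-treated iKO and 11.8 and 13.3 CPM in CFA-treated iKO, of which H2ac18 alone gave 17.8 in WT CFA library 2. Genes annotated to end near the stem-loop were thus a small share of the clustered CPM in each of the 8 libraries. CPM takes no account of transcript length, and transcripts of this class are short. That of H2ac18 has 586 bases, against 1560 for H1f2 and 1156 for H2bc4. Shares per kilobase were not computed. In genes ending near the stem-loop 38.6% (H2ac20) to 100% (H2ac19) of the 50-base stretches occur in genes elsewhere. For H1f2 and H2bc4 the values are 8.5% and 30.6%, while H3c6, with a longer end, has 73.4%. How reads with several matches were counted is not given, and its part in the small share was not tested.

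Other RNAs that lack poly-A tails separated WT vehicle from the rest, and the histone genes did so only in part. Rn7sk, Rmrp and Rpph1, the RNA parts of the 7SK, RNase MRP and RNase P particles, summed to 295 and 36.8 CPM in WT vehicle and to 3.28 to 11.9 CPM elsewhere. The 37 small nuclear, nucleolar and Cajal body RNAs summed to 14.4 and 12.96 CPM in WT vehicle and 5.12 to 10.6 CPM elsewhere. The 42 histone genes under 1 mean CPM summed to 16.9 and 9.14 CPM in WT vehicle, 9.99 and 7.94 in WT CFA, 7.72 and 5.88 in vehicle-treated iKO and 10.1 and 10.3 CPM in CFA-treated iKO. Only WT vehicle library 1 stood above the others there, while library 2 lay within their range. Reads were found for 52 and 47 of the 55 histone genes in WT vehicle, 42 and 35 in WT CFA, 40 and 44 in vehicle-treated iKO and 44 and 38 in CFA-treated iKO, although the WT vehicle libraries had the fewest reads. Of the 42 RNAs listed as lacking tails 22 were tested, which include the nuclear RNAs Malat1 and Neat1. Whether the reads of these 2 came from forms without a tail was not tested. With CFA in WT 6 of the 22 fell and 0 rose (Malat1 by -5.05 ± 0.33, adjusted p = 0.000214). Between iKO and WT under vehicle 7 were lower in iKO and 0 higher (Malat1 by -4.82 ± 0.32, adjusted p = 0.000226). The shares of all genes called lower were 8.71% and 9.33%. With CFA in iKO and between genotypes under CFA edgeR called 0, with 3 and 1 at an unadjusted p under 0.05, and DESeq2 called 2 and 0.

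**Figure D4:**
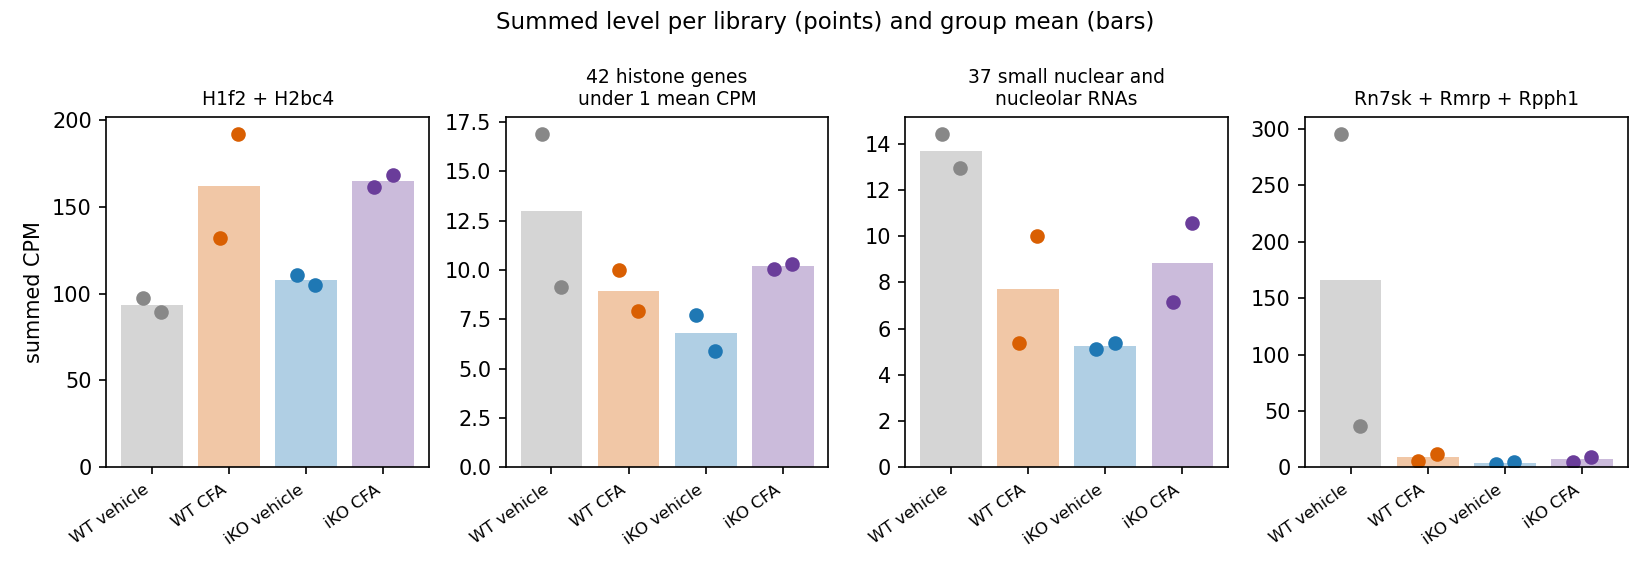
Summed CPM per library (points) and group mean (bars, from 0) for H1f2 with H2bc4, for the 42 histone genes under 1 mean CPM, for 37 small nuclear and nucleolar RNAs and for Rn7sk, Rmrp and Rpph1, each on its own axis. H1f2 with H2bc4 is higher after CFA in both genotypes, whereas Rn7sk, Rmrp and Rpph1 are high in WT vehicle library 1, at 295 CPM.

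Genes that make and process histone messages gave few calls. Of 19 tested, which include the stem-loop binder Slbp, the U7 particle protein Lsm11 and the histone gene coactivator Npat, 2 fell with CFA in WT: Hinfp, a factor of H4 promoters (-0.89 ± 0.21, adjusted p = 0.0268), and Tut7, which adds uridines to histone messages (-0.70 ± 0.21, 0.0496). Slbp differed by 0.53 ± 0.17 (adjusted p = 0.0624). Under vehicle 1 was lower in iKO, Hinfp (-0.76 ± 0.21, adjusted p = 0.0419). The shares of all genes called lower in these 2 comparisons were 8.71% and 9.33%. In the other 3 comparisons edgeR called 0, with 8, 1 and 1 at an unadjusted p under 0.05, and DESeq2 called 3, 0 and 0.

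Genes of DNA replication and mitosis, with which replication-dependent histones are usually produced, followed another order than the sum of the 52 clustered genes. The 36 genes summed to 367 and 277 CPM in WT vehicle, 213 and 288 in WT CFA, 222 and 200 in vehicle-treated iKO and 294 and 330 CPM in CFA-treated iKO. With CFA in WT 3 fell and 1 rose, with Cdk2, a kinase of the S phase, lower by -2.06 ± 0.40 (adjusted p = 0.0131), Top2a by -2.23 ± 0.56 (0.0307) and E2f1 higher by 0.72 ± 0.17 (0.0235). Under vehicle 9 were lower in iKO, among them Cenpf (-2.35 ± 0.46, adjusted p = 0.0132) and Cdk1 (-2.42 ± 0.51, 0.0160), and for the difference between the CFA responses 7 were higher. Among all genes 8.71% fell and 8.12% rose with CFA in WT. Under vehicle 9.33% of all genes were lower in iKO, and 6.19% were higher for the difference between the responses. With CFA in iKO edgeR called 0, with 18 at an unadjusted p under 0.05 and a median of 0.99, and DESeq2 called 11 higher. Between genotypes under CFA edgeR called 0, with 9 at an unadjusted p under 0.05, and DESeq2 called 1.

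Histone variants made outside of replication and the chaperones that deposit histones had their edgeR calls in the comparisons with WT vehicle. Of 8 variants tested, H3f3b, a gene of the variant H3.3, fell with CFA in WT (-0.78 ± 0.20, adjusted p = 0.0306) and was lower in iKO under vehicle (-1.01 ± 0.20, 0.0130). Its CFA response was higher in iKO than in WT by 1.187 ± 0.28 (adjusted p = 0.0358). Of 16 chaperones 3 fell with CFA in WT and were lower in iKO under vehicle: Atrx (-1.26 ± 0.20 and -0.997 ± 0.20, adjusted p = 0.00713 and 0.0142), Ubn2 and Nasp, a carrier of H3 and H4 and of linker histones. Of all genes 8.71% and 9.33% were called lower in these comparisons. For Nasp the CFA response was higher in iKO by 1.37 ± 0.31 (adjusted p = 0.0341). For both lists edgeR called 0 with CFA in iKO and 0 between genotypes under CFA, with 4 and 1 variants and 3 and 1 chaperones at an unadjusted p under 0.05. In these same comparisons DESeq2 called 3 variants higher with CFA in iKO, 0 variants between genotypes under CFA and 0 chaperones in either. The edgeR calls of both lists, like those of Malat1 and of the replication genes, all involve the WT vehicle libraries. Those libraries stood apart, and the part of that in the calls was not tested.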

How the data were processed

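The deposited files hold unscaled read counts for each gene symbol in 8 libraries. Per the submitters' processing notes, reads were aligned with HISAT2 2.2.1 to GRCm39 (mm39), handled with SAMtools 1.19.2, counted with featureCounts 2.0.6 and tested by the authors with DESeq2. Selection of tailed RNA, strand, annotation and the treatment of reads with several matches are not given in the sources used here.

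Genes were filtered with filterByExpr, which left 20235 of 25780 (at least 99.9% of reads), scaled by TMM and fitted in edgeR 4.0.16 (R 4.3.3) by a quasi-likelihood model with a mean per group over all 8 libraries (common dispersion 0.0753). Two-sided tests were adjusted by Benjamini and Hochberg over all genes tested, with a threshold of 0.05, and standard errors were taken as the log2 fold change over the root of F. The fitting code was tested on simulated data first. Alternatives were DESeq2 1.42.0 and its size factors, no filter, the other legacy setting of edgeR, a replicate block, single libraries left out and, chosen after seeing the data, the 2 groups of a comparison alone.

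The histone genes, lists and rules were chosen with earlier results of these data known. Named with a value in every library were called genes (up to 6 per direction and comparison) and the 10 with the highest mean CPM, and up to 3 genes per list and comparison. The limit of 100 bases past the stem-loop was set after transcripts were seen. Stem-loops and shared 50-base stretches come from GENCODE M21 transcripts and promoters from RefSeq, both on GRCm38, and no coordinate was converted. Counting intervals (exact binomial) cover counting error only.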

Additional observations from a re-analysis of the deposited data

Results flagged for a closer look

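The CFA response of H1f10 differed between genotypes by the test of that difference itself. H1f10 rose with CFA in WT (log2 fold change 1.06 ± 0.18) and differed by -0.38 ± 0.18 in iKO (adjusted p = 0.203), and the response in iKO less that in WT was -1.44 ± 0.26 (edgeR, adjusted p = 0.0149). Both WT CFA libraries lay above both WT vehicle libraries, and both iKO CFA libraries lay below both iKO vehicle libraries. In the main edgeR fit no other histone gene was called in this test, while DESeq2 also called H2bc11 (-1.67, adjusted p = 0.0332). The H1f10 call was lost in 5 of 13 alternatives, each with 1 library left out, with values of -1.58 to -1.30 over the 13.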

How the results depend on the processing

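No called value changed direction in any alternative. The counts of called histone genes did depend on the fit. With CFA in WT (3 called) the 2 groups alone gave 0, and leaving out 1 library gave 0 to 8. With CFA in iKO (0 called) DESeq2 gave 1 and the 2 groups alone 7, and leaving out 1 library gave 0 to 4, the highest without either WT CFA library. Between genotypes under vehicle (3 called) the other legacy setting and the 2 groups alone each gave 5, and leaving out 1 library gave 1 to 7. Under CFA (1 called) DESeq2 gave 3, the other legacy setting 2 and the 2 groups alone 0, and leaving out 1 library gave 0 to 4. For the difference between the CFA responses (1 called) DESeq2 gave 2, and leaving out 1 library gave 0 to 6. The share of all genes called moved with these counts: with CFA in iKO it was 0.0395%, 13% in DESeq2 and 45.3% with the 2 groups alone. The cause was not tested. The 7 called with CFA in iKO in the 2 groups alone were H1f0, H1f2, H1f10, H2bc4, H2bc6, H2bc21 and H4c8. The other legacy setting added H3c15 with CFA in WT (1.15, adjusted p = 0.0464) and H2bc18 under CFA (-4.62, 0.0176). Under vehicle it added H2ac18 (-1.79, 0.0394) and H2bc6 (0.77, 0.0472). The replicate numbers did not pair the libraries (correlations of deviations from -0.144 to 0.027), and the fit with the replicate block called 2, 0, 3, 1 and 1 in the 5 comparisons, losing H2bc11 with CFA in WT (1.27, adjusted p = 0.0591). Group means of the summed clustered genes moved by less than 1 SD under other scalings, and without scaling they were 151, 194, 139 and 212 CPM, with WT vehicle library 1 above WT CFA library 1. Depth limits the 42 genes under 1 mean CPM, of which 20 were not tested after the filter. Sequence shared with other genes may also limit the counts of some of them, which was not tested.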

Other observations

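H2af-ps2, a histone pseudogene symbol outside the rule and named after its values were seen, had 92 and 125 reads in WT vehicle, 200 and 115 in WT CFA, 0 and 1 in vehicle-treated iKO and 0 and 0 in CFA-treated iKO. Under vehicle the WT libraries held 306 times the reads per depth of iKO (95% interval of counting error 54.4 to 12150), and under CFA iKO was at least 97.1-fold lower, taking 3 reads over the group as the floor. The edgeR tests gave adjusted p = 0.00173 and 0.00331. Every WT library lay above every iKO library, the order also seen for H2bc18, H2ac18, H4c14 and H4c12. The share of all tested genes with that order was not counted.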
